A study of Mus musculus with 20 samples.

Results

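The differentiation of 2 Kmt2d-/- clones of the ATDC5 line was followed by RNA sequencing, each clone at day 0 and again at day 7. ATDC5 is a mouse chondrogenic cell line, and in both clones the 2 Kmt2d alleles had each lost the stretch coding for the SET domain, the catalytic part of the protein. The comparison took every library of these clones, 4 of the 10 in the series, and paired day 7 with day 0 within a clone, which gave 2 pairs. A clone was 1 stable cell line grown out separately, so a pair is 1 line before and after differentiation. At day 0 the cells, labelled undifferentiated, were in DMEM/Ham's F12 with 5% fetal bovine serum. At day 7 they had been kept in the same base medium and serum with insulin, transferrin, selenium, 50 µg/ml ascorbic acid and 10 mM β-glycerophosphate, after seeding at 100000 cells per well. The 6 libraries of 3 Kmt2d+/+ clones, cultured and sampled in the same way, entered the fit. There they add to the estimate of spread behind the p-values of the mutant comparison, and they are otherwise used below as a reference. The title of clone 1 in the labels carries the same line number as that of Kmt2d+/+ clone 2, and the labels do not say whether they share an origin.

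Chondrocytes arise when mesenchymal cells switch on Sox9, which with Sox5 and Sox6 drives the genes of cartilage matrix. That matrix is built of type II, IX and XI collagen fibrils, the large sulfated proteoglycan aggrecan, and adaptor proteins such as the matrilins and COMP. Later stages bring hypertrophy, marked by type X collagen, and mineralization. KMT2D is a histone methyltransferase that adds methyl groups to lysine 4 of histone H3, largely at enhancers, and its loss of function causes Kabuki syndrome, in which growth is impaired.

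Counts totalled 41366018 to 55802206 in the mutant libraries, against 35792773 to 66237188 over all 10. The top 10 genes took 8.26% to 12.8% of the mutant counts, and mitochondrial genes took 2.07% to 2.80%. The markers used to check for chondrocytes (Col2a1, Acan, Sox9, Col9a1, Matn1, Hapln1 and Cnmd) were each higher at day 7 than at day 0 in both clones, from as little as 0.0229 CPM (Cnmd in clone 2; CPM are counts relative to the library's total, with totals scaled by TMM, the trimmed mean of M-values). Col2a1 took 0.223% and 0.0850% of all counts at day 0 and 1.91% and 2.45% at day 7 (clone 1 first, as in every pair of values below). Markers of skeletal muscle (Myod1, Myog), neurons and glia (Rbfox3, Sox10), fat (Adipoq, Plin1) and blood cells (Ptprc) were at or under 0.0769 CPM in each mutant library. Fabp4 was at or under 0.169 CPM, and the epithelial markers Epcam and Cdh1 at or under 0.192 and 0.844 CPM. The macrophage marker Cd68 lay between 0.442 and 0.556 CPM and the endothelial marker Pecam1 between 4.46 and 7.04 CPM. Kmt2d itself (chr15:98831669-98871204 on GRCm38, minus strand), read over the whole gene, went from 205.2 and 148 CPM to 174.8 and 113.3 CPM (log2 fold change -0.31 ± 0.13, edgeR adjusted p = 0.209). In the Kmt2d+/+ libraries it lay between 173.3 and 210.8 CPM. A count over the whole gene does not read the SET domain separately and so does not check the genotype.

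After 7 days, 489 of 15467 genes were higher in the mutant clones (3.16% of those tested) and 373 were lower (2.41%), by edgeR's quasi-likelihood test with clone as a block and Benjamini-Hochberg adjusted p under 0.05. The fitted rises were larger than the fitted falls. The median log2 fold change was 2.26 among genes that rose and -1.30 among genes that fell, with a median of 0 over all genes. More than 4-fold changes numbered 271 up and 96 down, and more than 16-fold changes 138 up and 15 down. Fitted sizes are loosely bounded where a day has few or no counts. Il17b, for example, was fitted at 4600-fold, while its counts give at least 156.5-fold. From at most 3 counts in each clone, 15 genes reached 1 CPM in each at day 7, and 1 gene did the reverse. How far such genes shaped the excess of large rises was not tested. Genes that pass are those whose clones agree, so 861 of the 862 had the same sign in both by selection. The exception was Gbp4, which had no counts in clone 2 at either day. Across genes, the clones' log2 ratios correlated with r = 0.66 and Spearman's rho = 0.53, where pairs of Kmt2d+/+ clones gave r of 0.53 to 0.75. These correlations are across genes, which are not independent replicates. Falls were deeper in clone 1 for 282 of the 373 genes and in clone 2 for 90, whereas rises were larger in clone 1 for 209 of the 489 and in clone 2 for 274.

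**Figure D1:**
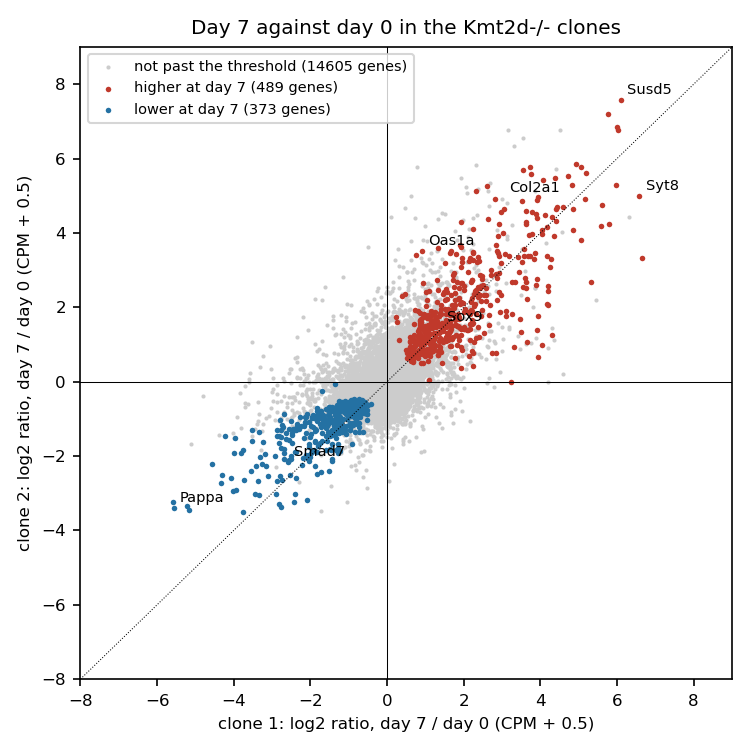
Log2 ratio of day 7 to day 0 in each Kmt2d-/- clone, clone 1 on the horizontal and clone 2 on the vertical axis, for 15467 genes (CPM with 0.5 added). Red points are the 489 genes that were higher and blue points the 373 that were lower. The dotted line marks equal ratios, and most blue points lie above it, where the fall was deeper in clone 1.

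The counts rest on few lines. With both libraries of mutant clone 1 left out, 0 genes passed in edgeR (2592 had an unadjusted p under 0.05, and the smallest adjusted p was 0.0519), and so every list below also had 0. Without mutant clone 2, 85 genes were higher and 213 lower. Without Kmt2d+/+ clone 3, which is no mutant line and enters mainly through the estimate of spread, 91 were higher and 58 lower. Counts without a clone are given beside the larger lists where they moved by more than 1.5 times. The adjusted p-values rest on the spread of the day effect between clonal lines of a genotype, with 3 residual degrees of freedom. More of these come from the Kmt2d+/+ clones than from the mutant clones. In bulk RNA, fewer cells of a type and less RNA per cell cannot be told apart.

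Of 29 cartilage matrix genes tested, 14 were higher at day 7, 0 were lower and 28 had a positive fold change, with a median log2 fold change of 5.04. Over all genes tested, 7656 of 15467 had a positive fold change, a baseline for each count of positive members below. Their summed level went from 6178 to 27890 CPM in clone 1 and from 1913 to 31960 CPM in clone 2. The matrilins, adaptor proteins that link collagen fibrils to other matrix components, were among the clearest. Matn1 (chr4:130944385-130955475, plus strand) rose from 0.217 and 0.0917 CPM to 45.2 and 67.8 CPM, a log2 fold change of 8.48 ± 0.79 (SE; edgeR adjusted p = 0.00961). Matn4 (chr2:164389393-164405160, minus strand) went from 0.411 and 0.161 CPM to 43.6 and 17.4 CPM, a log2 fold change of 6.73 ± 0.36 (edgeR adjusted p = 0.00420). Day 0 and day 7 did not overlap for either gene, and both were picked for passing this same comparison. Matn3 went from 0.483 and 0.138 to 13.4 and 5.79 CPM, and Matn2, found in many tissues, changed less, from 96.6 and 76.1 to 254.2 and 191.7 CPM.

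Of the collagens that assemble with type II collagen, some passed and some did not. Col9a1 rose from 8.09 and 1.74 CPM to 467.7 and 328.4 CPM, a log2 fold change of 6.65 ± 1.02 (edgeR adjusted p = 0.0271). Col11a2 rose from 11.04 and 16.4 to 324.4 and 664.2 CPM, and Col27a1 from 30.9 and 6.33 to 366.6 and 355.3 CPM. Both clones ended near each other although they had started several-fold apart in Col27a1. Col9a2 (0.0966 and 0.252 CPM, then 6.77 and 5.41 CPM) and Col9a3 (1.67 and 0.573 CPM, then 30.9 and 5.70 CPM) did not pass, with edgeR adjusted p of 0.0592 and 0.0506. Col11a1 was level in clone 1, at 3332 and 3395 CPM, and went from 958.5 to 3608 CPM in clone 2 (edgeR adjusted p = 0.616). Comp, which binds collagen and is mutated in a form of dwarfism, rose from 0.290 and 0.459 to 8.58 and 27.5 CPM. Ucma, a secreted protein of the upper growth plate, rose from 0.338 and 0.0688 to 40.0 and 9.79 CPM. Frzb, a secreted Wnt antagonist first found in cartilage, rose from 6.98 and 10.7 to 468.0 and 438.3 CPM. The small secreted proteins Scrg1, Clec3a and Mia started from almost nothing. Scrg1 had 1 count over both clones at day 0 and 502 at day 7, a ratio of 401 after scaling (95% counting interval 71.6 to 15850). Clec3a had 2 counts and then 409, a ratio of 163 (44.9 to 1352), and Mia had 2 and then 160, a ratio of 63.8 (17.4 to 531.7). These intervals cover counting error only.

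Several defining genes of cartilage had large fold changes in both clones and did not pass. Col2a1, the main cartilage collagen, went from 2533 and 806.4 CPM to 20470 and 24450 CPM (log2 fold change 3.97 ± 1.19, edgeR adjusted p = 0.112). Acan, the aggrecan core protein, was at 93.4 and 5.11 CPM and then at 933.1 and 450.4 CPM (edgeR adjusted p = 0.108). Hapln1, which ties aggrecan to hyaluronan, was at 37.5 and 10.98 CPM and then at 867.9 and 1265 CPM (edgeR adjusted p = 0.0968). In each of these, both day 7 values lay above both day 0 values, a pattern that was not counted over all genes. The day 0 levels of each differed between the clones by more than 3-fold. Prg4, the lubricant of the joint surface, had the single negative estimate in the list, from 0.725 and 0.504 to 0.154 and 0.422 CPM. The count of 14 became 5 without mutant clone 2 and 5 without Kmt2d+/+ clone 3.

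**Figure D2:**
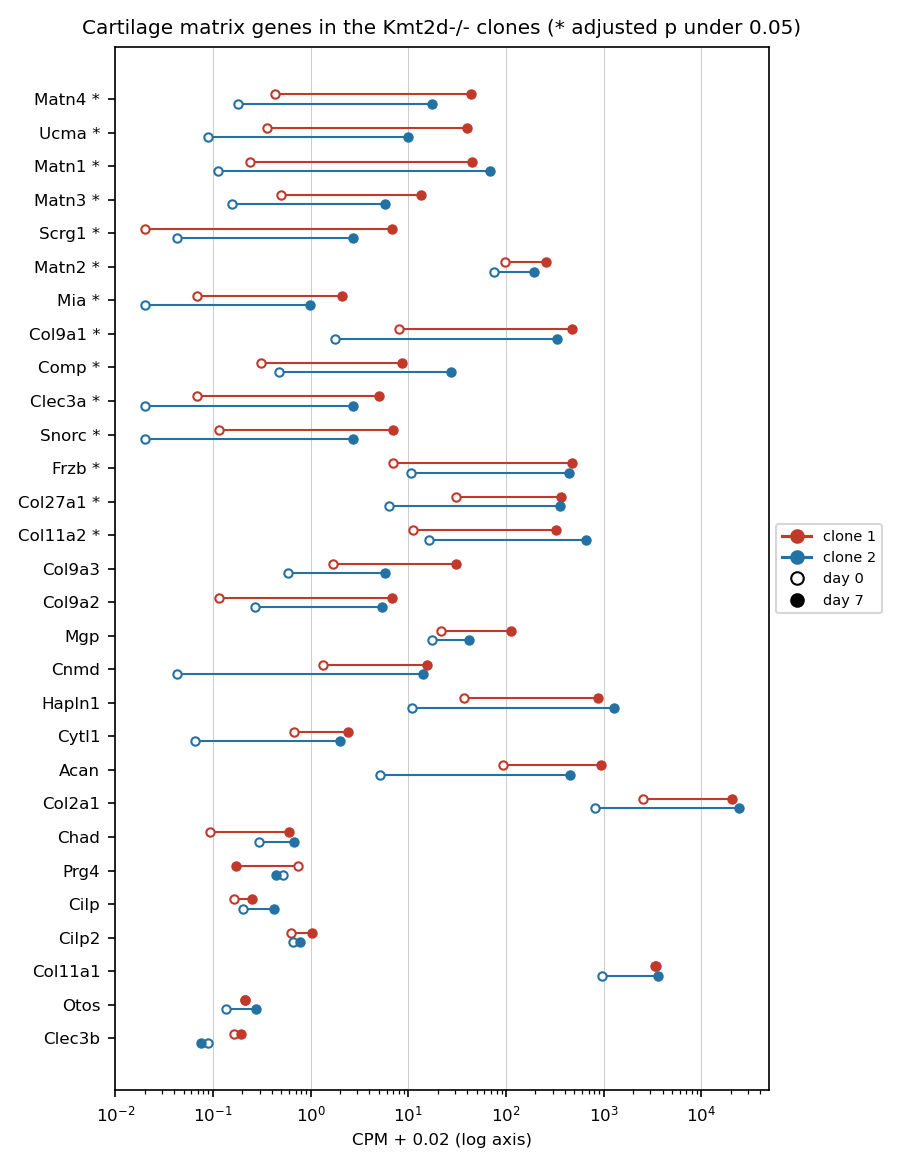
Level of the 29 cartilage matrix genes in each mutant library, as CPM with 0.02 added on a log axis. Open circles are day 0, filled circles day 7, and colours mark the clones. Stars mark the 14 genes past the threshold. Acan has no star, and its clones lie further apart at day 0 than at day 7.

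Transcription factors of the lineage were also counted. Of 18 tested, 2 were higher and 1 was lower, with a median log2 fold change of 0.23. Over all genes tested, 3.16% were higher and 2.41% lower. Sox9 (chr11:112782224-112787760, plus strand) went from 155.3 and 174.8 CPM to 409.1 and 480.9 CPM, a log2 fold change of 1.43 ± 0.43 that did not pass (edgeR adjusted p = 0.115). Sox5 and Sox6 also had positive estimates without passing, 2.39 and 1.22 on the log2 scale. Foxa2, a forkhead factor active as chondrocytes approach hypertrophy, rose from 1.11 and 0.229 to 33.3 and 32.2 CPM (log2 fold change 5.85 ± 0.67, edgeR adjusted p = 0.0305). Its relative Foxa3 passed at a very low level, reaching 0.327 and 1.504 CPM. Runx1, a runt-domain factor of early mesenchyme and blood, fell from 154.0 and 94.6 to 43.0 and 50.5 CPM. Shox2, a homeobox gene of the proximal limb, went opposite ways in the clones, from 4.86 to 1.08 CPM in clone 1 and from 7.09 to 9.41 CPM in clone 2 (edgeR adjusted p = 0.453). In the Kmt2d+/+ libraries it lay between 25.9 and 43.6 CPM. Without Kmt2d+/+ clone 3, 0 of these 18 passed, and without mutant clone 2, 0 were higher and 3 lower.

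Among 22 hypertrophic and mineralizing genes, 2 were higher and 0 lower, with a median of 0.90. Enpp1, which makes the mineralization inhibitor pyrophosphate, rose from 6.40 and 4.22 to 33.0 and 18.9 CPM (log2 fold change 2.26 ± 0.27, edgeR adjusted p = 0.0152). Bglap, the bone protein osteocalcin, reached 3.54 and 2.42 CPM from 0.0483 and 0.138 CPM. Its near-identical neighbour Bglap2 can share reads with it, so the split between them is uncertain. Col10a1, the defining collagen of hypertrophy, differed by clone, staying at 29.9 and 30.1 CPM in clone 1 and going from 27.4 to 162.0 CPM in clone 2 (edgeR adjusted p = 0.380). Mmp13, the collagenase of terminal chondrocytes, was at or under 0.573 CPM throughout. Ibsp, bone sialoprotein, was at 4.16 and 17.4 CPM and then at 367.2 and 381.5 CPM without passing (edgeR adjusted p = 0.0761). The count of 2 became 1 without Kmt2d+/+ clone 3 and 6 without Kmt2d+/+ clone 1.

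Genes that make and finish the matrix were counted next. Of 28 genes for sulfate activation and chondroitin sulfate chains, 5 were higher and 0 lower. Csgalnact1, which starts the chondroitin chain, rose from 14.7 and 7.82 to 98.4 and 65.4 CPM (log2 fold change 2.90 ± 0.29, edgeR adjusted p = 0.0111). Papss1 and Papss2, which make the sulfate donor, rose by 1.06 and 3.80 on the log2 scale, and Chsy1, which extends the chain, by 0.77. Chst13, a chondroitin sulfotransferase, had 1 count at day 0 and 99 at day 7, a ratio of 79.0 (95% counting interval 13.9 to 3152). Of 32 genes for folding, crosslinking and secreting collagen, 4 were higher and 1 was lower. P3h1 and P3h3, collagen prolyl hydroxylases, rose by 1.29 and 1.56, and their partner Ppib by 0.94. P4hb, a subunit of the main prolyl hydroxylase, rose by 0.85. Lox, which crosslinks collagen and elastin, fell from 2491 and 1344 to 694.7 and 650.3 CPM (log2 fold change -1.45 ± 0.22, edgeR adjusted p = 0.0261). Without Kmt2d+/+ clone 3 the sulfate list had 1 higher and the folding list 0, and without mutant clone 2 they had 1 and 0.

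Among 13 small leucine-rich proteoglycans, which bind collagen fibrils and set their width, 3 were higher. Fmod, fibromodulin, rose from 7.92 and 1.90 to 280.1 and 129.4 CPM (log2 fold change 5.58 ± 0.43, edgeR adjusted p = 0.00725). Lum and Dcn rose by 4.07 and 4.19 on the log2 scale from low levels. Without Kmt2d+/+ clone 2 or clone 3, 1 of the list was higher, and without mutant clone 2, 1 was higher and 1 lower. Collagens outside cartilage showed little shared direction, with Col16a1 higher and Col15a1 lower among 21. Without Kmt2d+/+ clone 2 or clone 3, 0 of the 21 passed. Of 24 matrix proteases and inhibitors, Adamts9 and Adamts4, which cut aggrecan and related proteoglycans, rose by 1.39 and 2.96 on the log2 scale. Timp2, a protease inhibitor, fell by 0.76. This list had 1 higher and 0 lower without Kmt2d+/+ clone 1 or clone 3, and 2 and 0 without Kmt2d+/+ clone 2.

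Falls were then counted in TGF-β and BMP signalling. Of 47 tested, 8 were lower and 3 higher, with a median of -0.30. The ligand subunit Inhba (chr13:16011851-16031621, plus strand), which forms activin A, fell from 712.9 and 196.1 to 34.8 and 29.2 CPM (log2 fold change -3.55 ± 0.38, edgeR adjusted p = 0.0116). Ltbp1, which stores latent TGF-β in the matrix, fell from 1242 and 717.1 to 389.1 and 366.3 CPM. The ligand Tgfb3 fell by 0.71 and the BMP receptor Bmpr2 by 0.71 on the log2 scale. Both inhibitory Smads passed. Smad7 went from 92.1 and 75.1 to 14.9 and 16.4 CPM (log2 fold change -2.41 ± 0.22, edgeR adjusted p = 0.00961), and Smad6 from 177.7 and 130.8 to 25.6 and 53.1 CPM. Smad9, a BMP-responsive Smad, went from 33.8 and 55.0 to 5.35 and 12.3 CPM, and Skil, a repressor that is itself induced by TGF-β, from 137.4 and 138 to 41.8 and 44.7 CPM. The days did not overlap in these 8 genes, which were picked for passing this same comparison. Such a pattern was not counted over all genes tested. The 3 that rose were Bambi, a decoy receptor, from 15.3 and 12.6 to 63.3 and 36.2 CPM, Tgfb2, from 154.9 and 98.4 to 395.9 and 337.3 CPM, and Bmp6, a ligand of hypertrophic cartilage, from 1.55 and 0.298 to 27.2 and 38.03 CPM. Without mutant clone 2 the split was 0 higher and 9 lower, and without Kmt2d+/+ clone 3 it was 1 and 4.

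Genes of the CCN family and other targets of YAP, the coactivator that works through TEAD factors and answers to cell shape and tension, were lower where they passed. Of 15 tested, 5 were lower and 0 higher, with a median of -1.24. Estimates were positive in 3 of the 15, 1 of them at an unadjusted edgeR p under 0.05. Ccn2 (chr10:24595442-24598683, plus strand), a matrix protein induced by TGF-β and YAP, fell from 1007 and 261.9 to 27.4 and 23.6 CPM, a log2 fold change of -4.34 ± 0.54 (edgeR adjusted p = 0.0163). Ankrd1 (chr19:36111961-36120099, minus strand), a muscle ankyrin repeat protein, fell from 24.5 and 29.7 to 0.173 and 2.49 CPM. Ajuba, a LIM protein that restrains the Hippo kinases, fell from 338.9 and 206.0 to 59.8 and 79.6 CPM. Tead1, one of the DNA-binding partners of YAP, fell from 307.6 and 210.7 to 121.3 and 126.0 CPM, and F3, tissue factor, from 17.8 and 37.95 to 7.33 and 16.5 CPM. Ccn1 (513.5 and 302.6 CPM, then 57.4 and 153.8 CPM) and Amotl2 (1180 and 655.8 CPM, then 288.4 and 429.1 CPM) did not pass. Clone 1 had the deeper median fall, with a log2 ratio of -1.34 against -0.70 in clone 2. The count of 5 became 1 without Kmt2d+/+ clone 3.

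**Figure D3:**
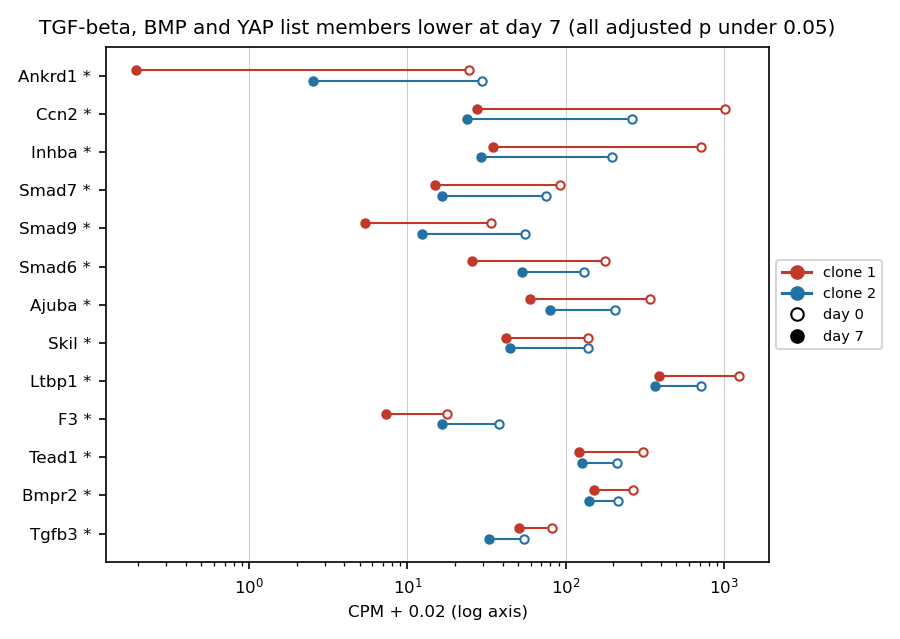
Level in each mutant library of the 13 genes of the TGF-β, BMP and YAP lists that fell, as CPM with 0.02 added on a log axis, ordered by fold change. Open circles are day 0 and filled circles day 7. In Ankrd1, Ccn2 and Inhba the clones differ in how far they fell, whereas in Skil and Bmpr2 the lines nearly match.

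Promoters were read for the YAP list because 5 of its members passed as lower and none passed as higher. The motif, GGAATG, is the core that TEAD factors bind, and it was chosen with these values known. RefSeq promoters of GRCm38.p6 (250 bases before to 50 after a start site) matched 10 of the 15 genes, with 11 promoters. Of these, 7 held the motif on either strand (63.6%), beside 12.7% of the 14321 promoters of all genes tested and 14.7% of all 32851. The list is one of known YAP targets, so this share is a description of the list. Among the genes that fell, 3 were matched: Ankrd1 and Ajuba held 2 matches each and F3 held none. The 4 promoters below show where the motif lies in 2 genes that fell and in Ccn1 and Amotl2, and capitals mark the motif as read on the gene's strand, GGAATG or its reverse complement. Their positions are chr19:36119795-36120094, chr14:54577612-54577911, chr3:145649936-145650235 and chr9:102717554-102717853, the first 3 on the minus strand and the last on the plus strand.
Ankrd1: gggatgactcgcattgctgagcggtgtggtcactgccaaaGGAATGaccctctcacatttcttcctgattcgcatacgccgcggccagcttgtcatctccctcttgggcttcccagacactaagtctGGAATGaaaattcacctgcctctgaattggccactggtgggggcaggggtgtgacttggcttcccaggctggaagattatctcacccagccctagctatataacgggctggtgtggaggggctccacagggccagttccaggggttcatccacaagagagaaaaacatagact
Ajuba: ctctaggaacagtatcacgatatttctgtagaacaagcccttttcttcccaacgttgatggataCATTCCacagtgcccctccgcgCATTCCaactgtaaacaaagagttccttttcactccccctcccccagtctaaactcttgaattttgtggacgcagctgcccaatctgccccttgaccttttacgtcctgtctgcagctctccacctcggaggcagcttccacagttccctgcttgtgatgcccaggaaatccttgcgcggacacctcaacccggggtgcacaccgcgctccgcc
Ccn1: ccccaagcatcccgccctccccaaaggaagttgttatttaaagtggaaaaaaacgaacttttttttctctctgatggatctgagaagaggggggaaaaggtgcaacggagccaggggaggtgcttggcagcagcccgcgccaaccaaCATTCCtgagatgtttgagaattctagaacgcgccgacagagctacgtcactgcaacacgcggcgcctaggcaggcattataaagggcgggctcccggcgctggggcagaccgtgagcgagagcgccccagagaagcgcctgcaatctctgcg
Amotl2: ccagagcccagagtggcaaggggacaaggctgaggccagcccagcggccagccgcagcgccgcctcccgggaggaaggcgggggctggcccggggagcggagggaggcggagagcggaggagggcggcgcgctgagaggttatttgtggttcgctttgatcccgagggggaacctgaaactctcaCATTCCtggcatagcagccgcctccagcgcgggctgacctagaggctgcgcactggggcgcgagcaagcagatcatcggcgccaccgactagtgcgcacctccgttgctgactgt
In Ankrd1 the matches begin 210 and 123 bases before the start site, in Ajuba 186 and 164, in Ccn1 103 and in Amotl2 65. For the cartilage matrix list, the SOX motifs ACAATG and CTTTGTT were searched in the same way on both strands. None of the 21 promoters of the 19 matched genes held either, beside 11.4% of the promoters of all genes tested. That says only that these letters are not in these windows.

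Receptors and ligands of other pathways changed in both directions. In the FGF list of 24, Fgfr3, the receptor that slows chondrocyte proliferation, rose from 35.1 and 25.2 to 124.5 and 275.2 CPM (log2 fold change 2.64 ± 0.52, edgeR adjusted p = 0.0446). Fgfr1 and the feedback inhibitor Spry1 rose by 1.71 and 2.61, and the ligand Fgf7 went from 121.8 and 144.9 to 42.1 and 26.9 CPM. In the Wnt list of 40, 5 were higher and 3 lower. Wnt5a, a noncanonical ligand of the growth plate, rose from 37.5 and 18.1 to 235.2 and 386.1 CPM, and the receptors Fzd9 and Fzd4 by 4.56 and 2.16. The antagonists Frzb and Wif1 rose by 5.71 and 3.29. Rspo3 and Lgr6, an R-spondin and one of its receptors, which amplify Wnt signals, fell by 2.72 and 3.26 on the log2 scale, and the ligand Wnt9a, active in joint formation, fell by 2.53. Rspo3 was alike in the clones, at 78.9 and 77.3 CPM and then at 10.9 and 12.9 CPM. Without mutant clone 2, the Wnt list had 0 higher and 4 lower and the FGF list 1 and 1. Without Kmt2d+/+ clone 3, they had 1 and 3, and 0 and 0.

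Insulin was part of the differentiation medium. Of 19 genes of the insulin and IGF axis, 2 were higher and 3 lower. Igf1r, the IGF receptor, fell from 285.2 and 202.0 to 99.9 and 93.2 CPM (log2 fold change -1.31 ± 0.14, edgeR adjusted p = 0.0117), and Irs2, which carries its signal, fell from 149.1 and 114.0 to 25.8 and 26.9 CPM. Pappa (chr4:65124174-65357509, plus strand), a protease that frees IGF from its binding proteins, fell from 121.3 and 26.8 to 2.06 and 2.07 CPM (log2 fold change -4.79 ± 0.54). The binding proteins Igfbp4, its substrate, and Igfbp2 rose by 4.80 and 2.77. Without mutant clone 2 there were 0 higher and 3 lower, and without Kmt2d+/+ clone 3 there were 0 and 2. In the C-type natriuretic peptide axis, which promotes growth plate elongation, the kinase Prkg2 (chr5:98929773-99037351, minus strand) rose from 18.7 and 14.3 to 82.3 and 53.9 CPM (log2 fold change 2.03 ± 0.16, edgeR adjusted p = 0.00725) and the other 6 did not pass.

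Genes tied to medium components and metabolism were set beside the 3.16% higher and 2.41% lower of all genes tested. Of 21 selenoprotein genes, Selenow rose from 26.6 and 23.3 to 92.8 and 124.0 CPM (edgeR adjusted p = 0.00725) and Selenoh by 1.49 on the log2 scale, while Txnrd2, the mitochondrial thioredoxin reductase, was at 6.14 and 11.7 CPM and then at 2.87 and 4.42 CPM (edgeR adjusted p = 0.0495). Of 18 iron genes, Hfe, a regulator of iron sensing, was higher. In cholesterol synthesis, 23 of 24 estimates were positive, with a median of 0.65, and Insig1, Fdft1 and Acat2 passed with log2 fold changes of 1.08, 0.82 and 0.77. The desaturases Scd1, Scd2 and Fads1 rose by 1.75, 1.61 and 0.86 (3 of 16 genes of fatty acid synthesis). Of 35 genes of glycolysis and hypoxia, 4 were higher and 32 were positive, with a median of 0.49. Aldoc, an aldolase, rose from 0.604 and 0.619 to 23.3 and 28.5 CPM, and Slc2a1, the basal glucose transporter, by 0.77. Without mutant clone 2, or without Kmt2d+/+ clone 3, the cholesterol list had 0 and the glycolysis list 1, the fatty acid list had 0 and 1 in turn, and without Kmt2d+/+ clone 1 the glycolysis list had 7. Nuclear genes of oxidative phosphorylation gave 0 of 41 in edgeR, with 19 at an unadjusted p under 0.05 (each positive), 12 higher in DESeq2 and 1 in limma-voom.

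Cell cycle genes went opposite ways in the clones. Of 40 genes of DNA replication and S phase, 30 were higher at day 7 in clone 1 and 0 were higher in clone 2, with median log2 ratios of 0.23 and -0.60. Of 41 G2 and M phase genes, 33 were higher in clone 1 and 5 in clone 2, with medians of 0.26 and -0.34. Over all 15467 genes tested, 7918 were higher in clone 1 and 7429 in clone 2, with medians of 0.02 and -0.01. Pcna, the replication clamp, was at 238.7 CPM at day 0 and 295.8 at day 7 in clone 1, and at 237.7 and then 156.6 in clone 2. Mki67, a marker of cycling cells, was at 229.4 and 265.2 CPM in clone 1 and at 386.6 and 212.7 CPM in clone 2. No gene of either list passed in edgeR. At an unadjusted p under 0.05, 3 S phase genes were lower and 3 G2 and M genes higher, and DESeq2 called 1 lower in the first list and 3 higher in the second. Cdkn1c, an imprinted inhibitor of cyclin-dependent kinases that acts in chondrocytes leaving the cycle, rose in both clones, from 6.57 and 1.35 to 256.2 and 89.3 CPM (log2 fold change 5.63 ± 1.17, edgeR adjusted p = 0.0492). The amino acid response genes driven by ATF4 also parted, with 3 of 25 higher in clone 1 and 23 of 25 in clone 2, and 0 passing in edgeR (0 at an unadjusted p under 0.05, and 0 in DESeq2 and limma-voom). The difference between the 2 clones was not tested, since each gave 1 library a day. Of 21 p53 targets, Plk2, Fas, Phlda3 and Zmat3 were lower and Ddit4 was higher. Without Kmt2d+/+ clone 3, 1 of these was lower and 0 were higher.

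Interferon response genes had a median log2 fold change of 2.08, with 6 of 38 higher, 0 lower and 36 positive. Ratios were larger in clone 2. Usp18, which damps interferon signalling, rose from 0.266 and 0.825 CPM to 4.21 and 50.5 CPM (log2 fold change 5.30 ± 0.84, edgeR adjusted p = 0.0288). Isg15, a ubiquitin-like protein, went from 0.0483 and 0.183 to 0.866 and 7.74 CPM, and Ifit1, which binds foreign RNA, from 0.411 and 0.734 to 5.87 and 36.6 CPM. Irf7, the factor that amplifies the response, reached 2.15 and 14.9 CPM. Oas1a and Rtp4 had no counts at day 0 and reached 0.442 and 5.24 CPM, and 0.404 and 1.302 CPM, so that clone 2 gave most of each mean. Their day 7 means were 40.3-fold and 12.1-fold the floor of 3 counts in each day 0 library, so the rises in the mean were at least that large. Reads of Oas1a can be shared with its close paralogs. The summed level of the 38 genes was 339.7 and 365.9 CPM in clone 1 and 393.3 and 1249 CPM in clone 2. Median log2 ratios were 0.82 and 1.88 in the mutant clones and 0.76, 4.78 and 3.00 in Kmt2d+/+ clones 1 to 3. These ratios have 0.5 CPM added, which damps changes at low levels, so they are not on the measure of the fitted 2.08. The count of 6 became 13 without Kmt2d+/+ clone 1, 3 without clone 2 and 2 without clone 3, and 1 without mutant clone 2.

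**Figure D4:**
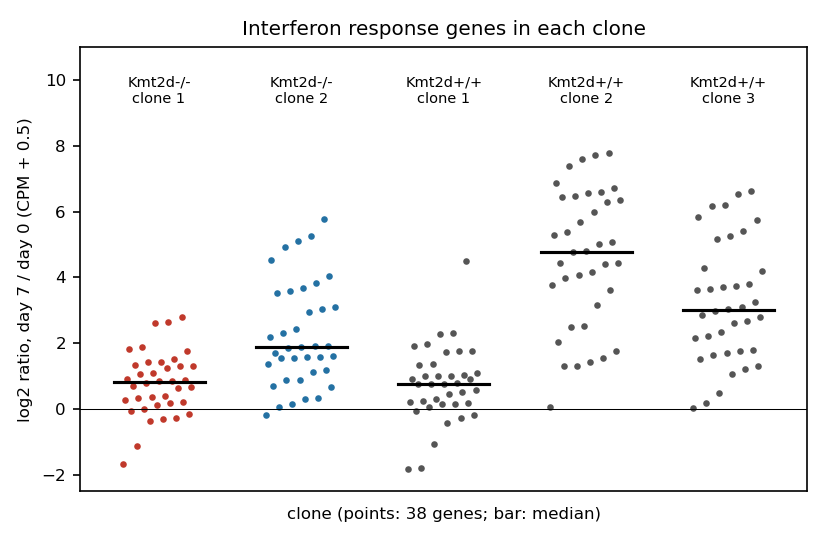
Log2 ratio of day 7 to day 0 (CPM with 0.5 added) for 38 interferon response genes in each of the 5 clones. Each point is a gene and the bar is the median, which was 0.82 and 1.88 in the Kmt2d-/- clones and ranged from 0.76 to 4.78 in the Kmt2d+/+ clones.

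The largest changes included genes outside the lists. Il17b, a cytokine known from cartilage, had no counts at day 0 and reached 10.1 and 12.1 CPM. With day 0 set at the floor of 3 counts in each library, its rise was at least 156.5-fold. Krtap17-1, a keratin-associated protein gene, went from 0 to 1.42 and 9.26 CPM, at least 75.6-fold. Susd5 (chr9:114057140-114098728, plus strand), a sushi-domain membrane protein, rose from 0.845 and 0.757 to 91.7 and 238.1 CPM (log2 fold change 7.54 ± 0.63, edgeR adjusted p = 0.00725). Further large rises were in Padi2, which turns arginine into citrulline (1.21 and 2.16 to 111.3 and 288.5 CPM), Syt8, a synaptotagmin (0.290 and 0 to 75.1 and 15.4 CPM), B4galnt3, a glycosyltransferase (0 and 0.0917 to 17.4 and 17.3 CPM), and Bmp8a, a BMP ligand (0.290 and 0 to 15.02 and 10.3 CPM). Sel1l3, Cmtm5 and Tnni2 also belonged to the 12 largest rises. Rgs4 (chr1:169741477-169747642, minus strand), which shortens G-protein signals, fell from 235.1 and 146.2 to 4.41 and 14.9 CPM (log2 fold change -4.49 ± 0.61, edgeR adjusted p = 0.0204). Gprin3 fell from 112.3 and 81.0 to 7.85 and 6.71 CPM, Lurap1l from 303.2 and 136.8 to 18.3 and 17.6 CPM, and P2ry14, a receptor for UDP-sugars, from 101.5 and 47.0 to 4.60 and 7.85 CPM. Prss46, Npy1r, Siglecg and Trac completed the 12 largest falls, with Ankrd1, Pappa, Ccn2 and Inhba above. In all, 15 genes went from at most 3 counts in each clone at day 0 to at least 1 CPM in each at day 7, among them Eln, the gene of elastin (0.0242 and 0 to 5.27 and 1.10 CPM), and Prl2c2 did the reverse.

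Calls in other stress and patterning lists are given next, beside 3.16% higher and 2.41% lower over all genes tested. Jun and Junb, subunits of the AP-1 factor, were lower and Egr2 was higher among 24 immediate early genes. Jun fell from 93.5 and 62.4 to 37.4 and 24.3 CPM. Of 29 Hox genes, which give cells their position along the body, Hoxb9 fell from 197.4 and 257.2 to 79.9 and 121.5 CPM and Hoxb3 by 0.96 on the log2 scale. Tnfrsf11b, the decoy receptor that blocks osteoclast formation, rose from 141.7 and 78.1 to 324.3 and 138.0 CPM, and the chemokine Cx3cl1 fell from 63.9 and 44.3 to 22.97 and 12.01 CPM. In the H3K4 methyltransferase complexes, to which KMT2D belongs, 0 of 19 passed in edgeR, with 1 higher and 4 lower at an unadjusted p under 0.05, 1 and 2 in DESeq2 and 0 and 1 in limma-voom. Hedgehog and PTHrP signalling gave 0 of 15 in edgeR, with 4 higher and 1 lower at an unadjusted p under 0.05, 3 higher in DESeq2 and 1 in limma-voom.

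Markers of other cell types were counted to show what else moved. Of 14 osteoblast markers, 4 were higher (Bglap2, Bglap, Dlx3 and Smpd3) and 14 were positive, with a median of 2.79. Their summed level, led by type I collagen, went from 30320 and 8214 CPM to 23350 and 13590 CPM. Sp7, the osteoblast factor that chondrocytes also express, was at 200.5 and 168.5 CPM and then at 277.0 and 205.7 CPM. Smooth muscle and myofibroblast genes gave 2 lower of 14, Postn (5492 and 1630 to 889.2 and 564.7 CPM) and Cald1. Their summed level went from 12760 and 4859 CPM to 3395 and 3479 CPM. By gene, however, the clones parted. Log2 ratios (CPM with 0.5 added) were positive for 3 of the 14 in clone 1 and 10 in clone 2, with medians of -1.12 and 0.23. Of 9 skeletal muscle markers tested, the fast troponins Tnni2 and Tnnt3 were higher, with a summed list level that went from 4.59 and 4.68 to 22.6 and 12.2 CPM. Myog had no counts. The endothelial list gave Erg, a factor also present in articular chondrocytes (1.23 and 0.138 to 45.3 and 29.2 CPM), with Cdh5 at or under 0.0229 CPM and Pecam1 at 6.55 and 7.04 and then at 5.44 and 4.46 CPM. Without Kmt2d+/+ clone 3 the osteoblast list had 2 higher and the smooth muscle list 0 lower, and without mutant clone 2 they had 2 and 4. The neural and glial list gave S100b and Nes, with Sox10 at 0, the adipocyte list Lpl and Cebpa, and the tendon and fibroblast list Fmod and Dpt, each higher. The endothelial and adipocyte lists had 0 and the neural and tendon lists 1 each without Kmt2d+/+ clone 3. Without mutant clone 2 the endothelial and adipocyte lists had 0, the neural list 1 higher and 1 lower, and the tendon list 2. The part of other cell types in the results above was not tested.

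**Figure D5:**
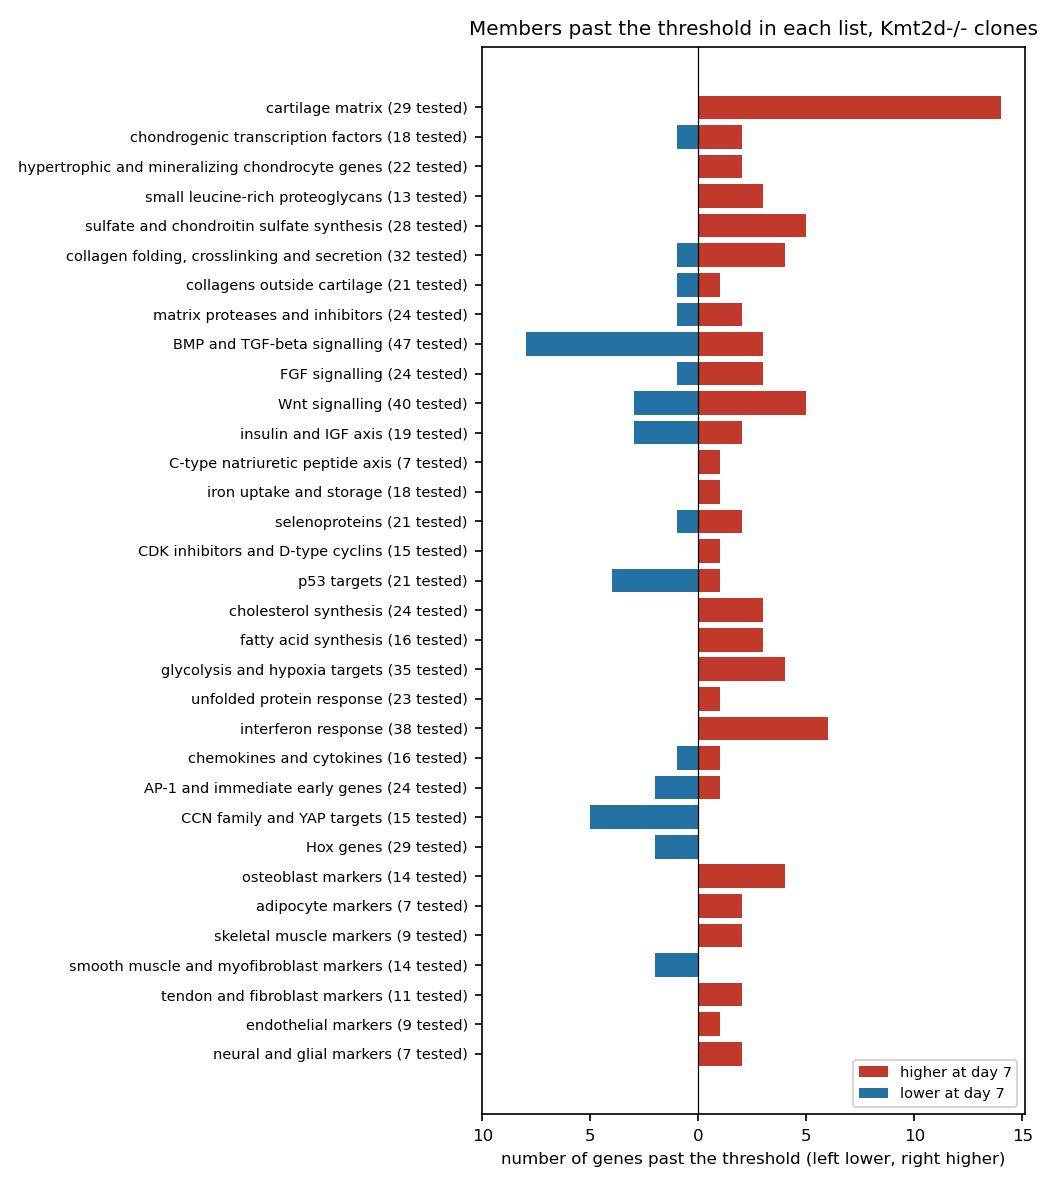
Number of genes past the threshold in each list with at least 1, higher at day 7 to the right and lower to the left. The number of genes tested is in each label. The cartilage matrix list has the longest bar to the right (14 of 29) and the BMP and TGF-β list the longest to the left (8 of 47).

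The day effect was then compared with that of the Kmt2d+/+ clones, to ask whether it differed by genotype. Of the 489 genes that rose in the mutants, 476 had a positive estimate in Kmt2d+/+, and of the 373 that fell, 357 had a negative one. Over all genes tested, 75.9% of those with a positive mutant estimate and 72.2% of those with a negative one had the same sign in Kmt2d+/+. Percent called was 0 for the difference itself: 0 of 15467 genes passed in edgeR, with a smallest adjusted p of 0.157, while 1286 (8.31%) had an unadjusted p under 0.05, DESeq2 called 273 and limma-voom 0. The smallest p belonged to Prkg2, for which the mutant log2 fold change of 2.03 stood beside -0.21 in Kmt2d+/+ (difference 2.24 ± 0.20, SE; edgeR adjusted p = 0.157). In Kmt2d+/+ it went from 27.4, 41.1 and 31.0 CPM to 19.8, 38.1 and 29.9 CPM. The other 4 of the 5 smallest p-values were those of Matn4, Ednra, Lsp1 and Elmo1. In Matn4 the mutants reached 43.6 and 17.4 CPM and no Kmt2d+/+ library passed 0.888 CPM (difference 5.23 ± 0.48). Lsp1, a leukocyte actin-binding protein, rose by 6.01 in the mutants and had an estimate of 2.42 in Kmt2d+/+. Ednra, an endothelin receptor, and Elmo1, which aids cell migration, were the reverse. Ednra stayed at or under 1.01 CPM in the mutants and reached 3.78, 6.47 and 40.0 CPM in the Kmt2d+/+ clones. Elmo1 went from 39.2 and 45.5 to 40.6 and 36.9 CPM in the mutants and from 6.39, 10.9 and 12.6 to 21.8, 40.7 and 55.6 CPM in Kmt2d+/+. In the cartilage matrix list, the median log2 fold change was 5.04 in the mutants and 2.71 in Kmt2d+/+. The 2 medians were not tested against each other, and no member passed the test of the difference in edgeR. Their starting levels also differed. The list summed to 6178 and 1913 CPM in the mutants at day 0. In Kmt2d+/+ clones 1 to 3 it summed to 137.6, 451.6 and 204.8 CPM at day 0. At day 7 those clones reached 1411, 827.3 and 881.9 CPM, each below both mutant day 0 sums. This difference in level was not tested.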

How the data were processed

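PolyA RNA of 5 ATDC5 clones at 2 days (10 libraries, each sequenced in 2 runs) was measured. The authors deposited gene-level estimated counts; the submitters' processing notes name Salmon and GRCm38, without versions, while the annotation and strand setting were not given in the sources used here. Runs of a library were summed and the sums rounded to whole numbers. Gene names and positions came from GENCODE M21, and 481 of 27911 identifiers had no symbol. Genes were kept by filterByExpr (15467), scaled by TMM and tested with edgeR 4.0.16 in R 4.3.3 (quasi-likelihood F test), with 1 term per clone and 1 day effect per genotype, and Benjamini-Hochberg adjusted over all genes kept, at 0.05. Standard errors came from the F statistic. Ratios within a clone used CPM with 0.5 added. The script was tested on simulated data.

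The clone term rests on the labels, by which 1 line was harvested at both days. Deviations from the group means at the 2 days correlated within each Kmt2d+/+ clone (r = 0.39, 0.60 and 0.52 in clones 1 to 3). In the Kmt2d-/- clones r was 0.51, a single value, since the deviations of 2 clones from their mean are mirror images.

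The comparison, gene lists and markers were chosen with earlier results of these data known. Genes were named by rule: Kmt2d, Sox9 and Shox2, the 12 largest rises and 12 largest falls among genes that passed and averaged 5 CPM or more at 1 day, up to 3 passing members of each list with the smallest p, and the 5 smallest p for the difference of day effects. Other list members named in the text, Gbp4, Eln, Prl2c2, the imprinted genes, the runs of neighbours and the TEAD motif were chosen after their values were seen. Alternatives were no clone term, the Kmt2d-/- libraries alone, DESeq2 1.42.0, limma-voom (limma 3.58.1), other scaling and filters, each run alone, and leaving out each clone.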

Additional observations from a re-analysis of the deposited data

How the results depend on the processing

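Leaving out 1 clone at a time gave 0 to 520 genes higher and 0 to 306 lower in the mutant comparison, and 0 genes for the difference of day effects each time. Without the replicate block, which pairs the libraries of a clone, 104 genes were higher and 92 lower, and 92 of the 144 passing genes named in the text no longer passed. With the Kmt2d-/- libraries alone, 269 were higher and 100 lower. DESeq2 called 1310 higher and 1036 lower, and 273 for the difference of day effects. Run 2 alone gave 325 higher, and run 1 alone gave 1 gene for the difference. The cause was not tested in any of these. Limma-voom, DESeq2 size factors, upper-quartile scaling, no filter and a mean of at least 5 CPM kept both counts within 1.5 times. Scaling by upper quartile or DESeq2 size factors kept 140 and 141 of the 144 named passing genes. The sign of Ednra, near 0, turned to 0.02 with the Kmt2d-/- libraries alone and with no filter, 0.01 with upper-quartile scaling and 0.23 in run 1 alone. Log2 fold changes over the leave-outs ran from -0.12 to 0.25 for Ednra, -0.31 to 0.05 for Elmo1, -2.17 to 0.40 for Shox2, -0.61 to 0.31 for Pcna, -0.87 to 0.21 for Mki67 and 0 to 10.80 for Gbp4, whose value rests on mutant clone 1. Genes with few or no counts at day 0 had fitted fold changes that moved by more than 1.5 times between tools or runs, so bounds or count ratios are given for them.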

Other observations

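Neighbouring genes were read in order along the chromosomes, a view chosen after the values were seen. Of 15277 windows of 4 neighbouring tested genes, 6 had all 4 genes higher and 0 had all 4 lower, and they fell into 2 runs of 6 genes. The first run, chr7:142325837-142516009 on GRCm38 (190.2 kb), held Ifitm10, Ctsd, Syt8, Tnni2, Lsp1 and Tnnt3. Ctsd, the lysosomal protease cathepsin D, went from 368.9 and 328.1 to 1074 and 699.8 CPM, Lsp1 from 0.845 and 0.367 to 73.8 and 15.9 CPM, and Ifitm10 from 1.91 and 1.19 to 7.12 and 5.57 CPM. Next along, Mrpl23 and the growth factor gene Igf2 did not pass (edgeR adjusted p = 0.0543 and 0.0769). The second run, chr5:105014150-105490074 (475.9 kb), held the guanylate-binding protein genes Gbp8, Gbp9, Gbp4 and Gbp11, a predicted gene and Lrrc8b. In contrast to the interferon response genes above, these had higher day 7 levels in clone 1, with Gbp9 going from 1.91 to 239 CPM there and from 0.482 to 9.33 CPM in clone 2. Gbp4 had no counts in clone 2 at either day, so its call rests on clone 1, and every window of 4 in this run includes it. Gbp genes are close paralogs, and how their shared reads were divided is uncertain.

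A few imprinted genes were also picked after their values were seen, and say nothing of imprinted genes as a group. Plagl1, a zinc finger factor, went from 62.9 and 73.0 to 302.6 and 377.3 CPM (log2 fold change 2.32 ± 0.16, edgeR adjusted p = 0.00528). Peg3 and Mest rose by 3.91 and 2.61 on the log2 scale, and Peg10 fell from 571.1 and 1204 to 172.5 and 223.7 CPM.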
